A study of Mus with 5 samples.

Results

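The genes described here are the *Myc* genes *Mycn* (also called *n-Myc*) and *Myc*, the 3 D-type cyclins *Ccnd1*, *Ccnd2* and *Ccnd3*, and the 3 CDK inhibitors of the Cip/Kip family, *Cdkn1a*, *Cdkn1b* and *Cdkn1c*. They were chosen by name and identifier for their place in cell cycle entry, and values were deposited for all 8, as for 12857 genes in all. In ventricles and valves of E14.5 mouse hearts, WT was compared with *Nkx2.5* Cre/+*;Bmp2* tg/+ hearts, in which Cre made from the *Nkx2.5* locus releases a *Bmp2* and eGFP transgene in the *Rosa26* locus. The transgenic line came from 1 embryonic stem cell clone, and in the cross the study describes, the mothers were homozygous for *Nkx2.5* Cre, so that littermates without the transgene carry Cre as well, but the labels do not say that the WT embryos were such littermates, and if they lacked the allele, its effects and those of *Bmp2* cannot be told apart. Each library was a pool of 4 hearts, and 3 transgenic pools and 2 WT pools were compared (the authors left out a further WT pool for clustering poorly with the others, so the 2 kept were chosen for likeness, which bears on the WT spread and on the lack of overlap). Values are counts per 1000000 reads of a scaled library size (CPM), and dividing by the worth of 1 read gave 9351893 and 7427905 reads for WT pools 1 and 2 and 10564780, 9442233 and 7931484 reads for transgenic pools 1 to 3.

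Progression from G1 into S phase is driven by D cyclins, which activate CDK4 and CDK6, and these kinases phosphorylate the retinoblastoma protein and free E2F factors. Cip/Kip proteins bind cyclin and CDK complexes and restrain them, while Myc proteins are transcription factors that promote growth and cell cycle entry. In the fetal heart, N-Myc is needed for expansion of the compact myocardium, and D cyclins are abundant while cardiomyocytes still divide. The comparison of the genotypes addresses how the transcripts of this G1 machinery differed in hearts with added *Bmp2*.

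*Mycn* was the only one of the 8 genes that passed the threshold, a limma adjusted p at or under 0.05 over all genes, but the call was kept in only 5 of 15 alternative analyses that gave distinct results and was lost in 4 of the 5 that leave out a pool. *Mycn* and *Cdkn1c*, 2 of the 8, are also in the study's own list of changed genes, which was drawn from the same libraries, so their values here are no independent support for that list. *Cdkn1c*, which encodes p57, and the cyclins *Ccnd1* and *Ccnd2* lay lower in every transgenic pool than in either WT pool, and *Cdkn1a*, which encodes p21, lay higher, but none of these 4 passed. *Myc*, *Ccnd3* and *Cdkn1b*, which encodes p27, overlapped between the genotypes. A count of 1 in 8 genes called compares with 2.82% of all genes (362 of 12857). By weaker measures, 5 of the 8 did not overlap between genotypes, against 35.7% of all genes, and 4 of the 8 had an unadjusted limma p under 0.05, against 17.7% of all genes. The 8 genes were chosen with earlier results of these data known, so these counts describe them only. The differences were small. Their median size was 0.15 on the log2 scale, beside 0.10 over all genes and 0.22 for the smallest difference called anywhere. In whole tissue, fewer cells of a type and less RNA per cell cannot be told apart in any of these values.

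**Figure D1:**
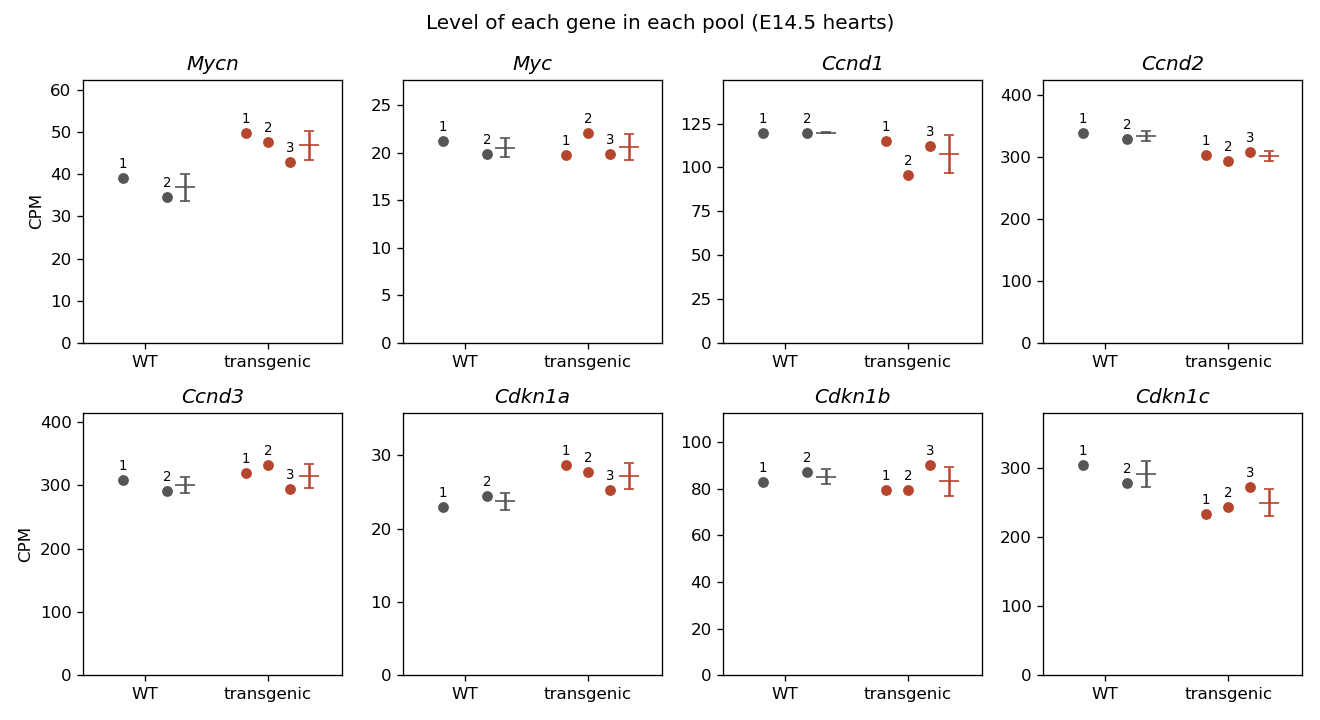
Level of each of the 8 genes in CPM (linear axes from 0) in the 2 WT pools (grey) and 3 transgenic pools (red), each point labelled with its pool number, with the mean and SD of each genotype at the right of its points. *Mycn* and *Cdkn1a* are higher in all 3 transgenic pools than in both WT pools, *Ccnd1*, *Ccnd2* and *Cdkn1c* are lower, and *Myc*, *Ccnd3* and *Cdkn1b* overlap.

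*Mycn* (ENSMUSG00000037169, chromosome 12 of GRCm38.p6, 12936093 to 12941836) measured 39.2 and 34.7 CPM in WT pools 1 and 2, against 49.9, 47.7 and 43.0 CPM in transgenic pools 1 to 3. No WT pool reached a transgenic one, with 3.80 CPM between the lowest transgenic and the highest WT pool, a gap close to the spread within each genotype. WT hearts averaged 37.0 CPM (SD 3.19 over 2 pools) and transgenic hearts averaged 46.9 CPM (SD 3.52 over 3 pools), and the log2 fold change was 0.34 (standard error 0.09, 95% interval 0.15 to 0.52, limma adjusted p = 0.0478). This is a rise of 26.4%, with an interval from 11.3% to 43.6%. Behind these values stand 371 and 259 reads in WT and 522, 444 and 344 reads in transgenic libraries. Counting alone gives a coefficient of variation of 5.63% among WT pools, where 8.62% was measured, and of 4.79% among transgenic pools, where 7.51% was measured. The call sat at the edge of the threshold. It was lost without transgenic pool 1 (limma adjusted p = 0.128), transgenic pool 2 (0.121), WT pool 1 (0.165) or WT pool 2 (0.396), and kept without transgenic pool 3 (0.0244), and with pools left out the log2 fold change stayed between 0.25 and 0.43.

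*Myc* (ENSMUSG00000022346, chromosome 15, 61985341 to 61990361), the paralogue of *Mycn* that is active in many dividing tissues, measured 21.3 and 19.8 CPM in WT pools 1 and 2, against 19.8, 22.1 and 19.9 CPM in transgenic pools 1 to 3. Both WT values lay inside the range of the transgenic pools. The log2 fold change was 0.00 (0.0028), with a 95% interval from -0.22 to 0.22 and a limma adjusted p of 0.994, so values from -14.0% to 16.8% are within the interval. With 148 to 207 reads per pool, counting alone gives a coefficient of variation of 7.24% among transgenic pools, above the 6.38% measured. The sign of the *Myc* value changed with the pool left out, being -0.05 without transgenic pool 2 or WT pool 2 and 0.05 without WT pool 1.

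Within a library the ratio of *Mycn* to *Myc* does not depend on how libraries are scaled. It was 1.85 and 1.75 for WT pools 1 and 2 but 2.52, 2.16 and 2.16 for transgenic pools 1 to 3, with no overlap. The log2 ratio differed by 0.34 between genotypes (exact two-sided permutation test, p = 0.2, the smallest that 10 arrangements of the pools allow). The sum of both genes came to 60.5 and 54.6 CPM in the WT libraries and 69.7, 69.8 and 62.9 CPM in the transgenic ones.

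Among the D cyclins, *Ccnd1* and *Ccnd2* had values of -10.4% and -9.59% in transgenic against WT hearts and *Ccnd3* of 4.90%, and none of these passed. *Ccnd1* (ENSMUSG00000070348, chromosome 7, 144929931 to 144939831), which encodes cyclin D1, a cyclin induced by growth factor signals, measured 119.9 and 119.7 CPM in WT pools 1 and 2, against 115, 95.6 and 112 CPM in transgenic pools 1 to 3. Transgenic pool 2 stood well below the other pools of its genotype. Transgenic hearts averaged 107.7 CPM, with an SD of 10.6, WT hearts averaged 119.8 CPM, with an SD of 0.137, and the log2 fold change was -0.16 (standard error 0.07, 95% interval -0.32 to -0.0005, limma adjusted p = 0.280). The WT pools lay closer together than counting gives on average, since their 1134 and 893 reads carry a counting coefficient of variation of 3.14%, against 0.115% measured. Without transgenic pool 2 the *Ccnd1* log2 fold change was -0.08 (limma adjusted p = 0.66).

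*Ccnd2* (ENSMUSG00000000184, chromosome 6, 127125162 to 127152188), which encodes cyclin D2, measured 339 and 328 CPM in WT pools 1 and 2, against 303, 293 and 308 CPM in transgenic pools 1 to 3. The pools of each genotype lay close together and 19.8 CPM separated the genotypes, more than the SD of 7.67 CPM among transgenic and 7.84 CPM among WT pools. The log2 fold change of *Ccnd2* was -0.15 (standard error 0.05, 95% interval -0.26 to -0.03), with an unadjusted limma p of 0.0155 and an adjusted p of 0.163. Whichever pool was left out, it lay between -0.17 and -0.12. With 2446 to 3206 reads per pool, *Ccnd2* had the smallest standard error of the 8 genes.

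*Ccnd3* (ENSMUSG00000034165, chromosome 17, 47505051 to 47599689), which encodes cyclin D3, measured 309 and 291 CPM in WT pools 1 and 2, against 319, 332 and 294 CPM in transgenic pools 1 to 3. Transgenic pools 1 and 2 were above both WT pools and transgenic pool 3 lay between them. The log2 fold change of *Ccnd3* was 0.07 (standard error 0.06, 95% interval -0.06 to 0.20, limma adjusted p = 0.594), which leaves values from -4.10% to 14.7% within the interval. It was 0.025 without WT pool 2, 0.030 without transgenic pool 2 and 0.118 without transgenic pool 3. RefSeq places *Bysl* and a long non-coding RNA gene across parts of the *Ccnd3* span, and likewise another gene across parts of the *Ccnd1* and the *Ccnd2* span. The methods do not state that strand was used in counting, so reads of such neighbours may not be told apart where exons overlap.

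The makeup of the D cyclins within each library followed from these values. Of the summed CPM of the 3 genes, *Ccnd2* held 41.1%, 40.7% and 43.1% in transgenic against 44.1% and 44.4% in WT pools, while *Ccnd3* held 43.3%, 46.1% and 41.2% against 40.3% and 39.4%. Neither share overlapped between genotypes. The mean *Ccnd3* share was 3.68 percentage points higher and the mean *Ccnd2* share differed by -2.63 points in transgenic hearts (exact two-sided permutation tests, p = 0.2 for each, the smallest possible), and both comparisons were added after the data were seen. The *Ccnd3* difference ran from 2.39 points without transgenic pool 2 to 4.84 without transgenic pool 3, and that of *Ccnd2* from -2.15 to -3.38 without the same pools. These are shares of reads, which depend on transcript length, so they compare pools and not the abundance of the cyclins. The *Ccnd1* share overlapped, at 15.6%, 13.3% and 15.7% against 15.6% and 16.2% (exact permutation p = 0.6), and its mean difference of -1.04 points was -0.243 without transgenic pool 2. The sum of the D cyclins came to 768 and 739 CPM in the WT libraries and 738, 721 and 714 CPM in the transgenic ones, with transgenic pool 1 next to WT pool 2.

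Among the Cip/Kip inhibitors, *Cdkn1c* lay lower, *Cdkn1a* lay higher and *Cdkn1b* overlapped. *Cdkn1c* (ENSMUSG00000037664, chromosome 7, 143458339 to 143461059) is an imprinted gene, expressed from the maternal allele, whose product p57 limits growth of embryonic tissues. It measured 305 and 278 CPM in WT pools 1 and 2, against 234, 245 and 273 CPM in transgenic pools 1 to 3. All transgenic pools were below both WT pools, but transgenic pool 3 was only 5.77 CPM below WT pool 2, less than the SD of either genotype. The average was 250.5 CPM with an SD of 19.9 for transgenic and 291.6 CPM with an SD of 18.7 for WT hearts, and the log2 fold change was -0.22 (standard error 0.07, 95% interval -0.36 to -0.08), a value of -14.2%. Its unadjusted limma p was 0.00479 and its adjusted p 0.0903, so *Cdkn1c* did not pass. This differs from the study's list, which holds *Cdkn1c* and was made with edgeR at an adjusted p under 0.05. On the recovered reads, edgeR's exact test gave an adjusted p of 0.0917, and the reason for the difference was not tested. Without transgenic pool 3 the log2 fold change was -0.28 and it passed (limma adjusted p = 0.0213), and without WT pool 1 it was -0.16 (adjusted p = 0.504). The spread of *Cdkn1c* among transgenic pools, a coefficient of variation of 7.94%, was above the 2.08% that its 2180 to 2448 reads give by counting.

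*Cdkn1a* (ENSMUSG00000023067, chromosome 17, 29090979 to 29100722), a target of p53 that is also induced by TGF-β and BMP signals in several cell types, measured 22.9 and 24.5 CPM in WT pools 1 and 2, against 28.7, 27.7 and 25.3 CPM in transgenic pools 1 to 3. The genotypes were separated by 0.732 CPM, less than the SD of 1.77 CPM among transgenic pools. The log2 fold change of *Cdkn1a* was 0.19 (standard error 0.10, 95% interval -0.01 to 0.40, limma adjusted p = 0.310). It rests on 183 to 300 reads per pool, and the coefficient of variation of 6.48% among transgenic pools was near the 6.28% that counting gives. With pools left out the *Cdkn1a* value ran from 0.15 to 0.24.

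*Cdkn1b* (ENSMUSG00000003031, chromosome 6, 134920401 to 134925525), whose product p27 accumulates as cells leave the cycle, measured 83.0 and 87.3 CPM in WT pools 1 and 2, against 79.6, 79.4 and 90.0 CPM in transgenic pools 1 to 3. The WT pools lay inside the range of the transgenic pools. For *Cdkn1b* limma gave a log2 fold change of -0.04 (standard error 0.07, 95% interval -0.19 to 0.11, limma adjusted p = 0.830), so values from -12.2% to 8.02% are within the interval, and with pools left out it ran from -0.097 to -0.0020.

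Within the summed CPM of the 3 inhibitors, *Cdkn1c* held 68.4%, 69.5% and 70.3% in transgenic against 74.2% and 71.4% in WT pools. The share did not overlap and was lower by a mean difference of -3.38 percentage points (exact two-sided permutation test, p = 0.2, the smallest possible), which was -1.95 without WT pool 1 and -4.81 without WT pool 2. *Cdkn1a* held 8.38%, 7.87% and 6.51% against 5.59% and 6.29%, and *Cdkn1b*, whose level overlapped, held 23.2%, 22.6% and 23.2% against 20.2% and 22.4%. These 2 shares did not overlap either (exact permutation p = 0.2 for each), but shares of 3 genes depend on each other, and both were added after the data were seen. The *Cdkn1b* difference of 1.73 points was 0.647 without WT pool 1 and 2.8 without WT pool 2. The inhibitors came to 411 and 390 CPM in the WT libraries and 342, 352 and 388 CPM in the transgenic ones, and the ratio of the D cyclin sum to the inhibitor sum, at 2.15, 2.05 and 1.84 against 1.87 and 1.89, overlapped between genotypes (exact permutation p = 0.6, added after the data were seen).

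**Figure D2:**
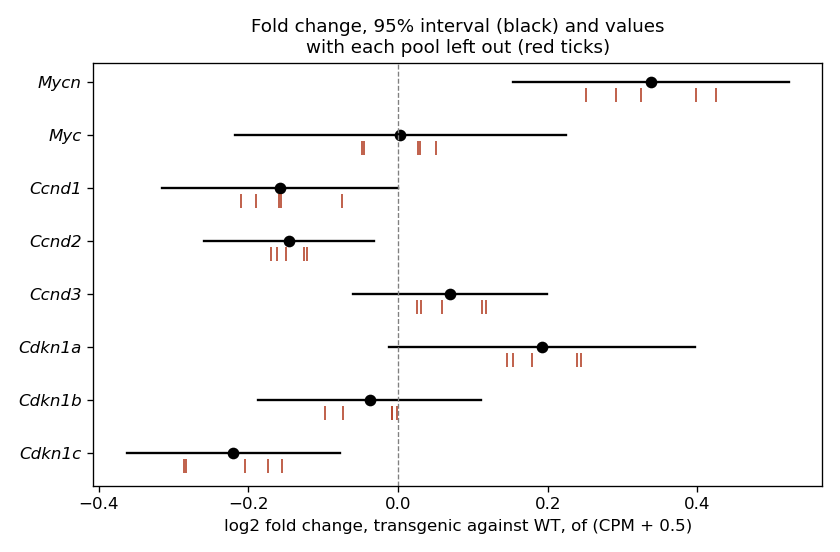
Log2 fold change of (CPM + 0.5), transgenic against WT, for the 8 genes (black points) with the 95% interval from limma (black lines), and the values with each of the 5 pools left out in turn (red ticks). The interval of *Mycn* runs from 0.15 to 0.52 and that of *Cdkn1c* from -0.36 to -0.08, while those of *Myc*, *Ccnd3*, *Cdkn1a* and *Cdkn1b* include 0.

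The transgenic pools did not lie equally far from WT. For *Mycn*, *Ccnd2*, *Cdkn1a* and *Cdkn1c*, 4 of the 5 genes without overlap, transgenic pool 3 lay nearest to the WT mean, and for *Ccnd1* it was pool 1. Pool 3 was nearest for 40.9% of all genes without overlap, pool 1 for 40.2% and pool 2 for 18.9%. *Bmp2* itself (ENSMUSG00000027358) measured 14.1 and 10.2 CPM in WT pools 1 and 2, against 23.0, 27.1 and 23.3 CPM in transgenic pools 1 to 3, with reads of transgene and endogenous gene counted together. *Bmp2* rose by 0.99 on the log2 scale (limma adjusted p = 0.000712, standard error 0.13), which was larger than the change of any of the 8 genes. The *Bmp2* call was kept in 13 of the 14 distinct alternatives counted for it.

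For genes around this machinery, lists were fixed by symbol, but the deposited values carry identifiers only, and names came from the study's own list of changed genes, which pairs 405. Any gene matched this way had been picked by the authors from these libraries, so such matches give no independent evidence of direction. None of the 13 Myc partners and turnover factors, 18 Myc target genes, 22 kinases, cyclins, Rb and E2F genes of G1, 5 further genes (INK4-type inhibitors and *Cdkn3*), 11 regulators of D cyclins and p27, 18 genes of the p53 pathway and 16 markers of S phase and mitosis could be matched, and they were not analysed here. Of 16 imprinted growth genes, only *Peg3*, a paternally expressed gene, was matched. It measured 667 and 662 CPM in WT pools 1 and 2, against 521, 540 and 552 CPM in transgenic pools 1 to 3 and fell by 0.31 on the log2 scale (limma adjusted p = 0.00547). The *Peg3* call was kept in 12 of 15 alternatives. Of 6 BMP target genes, 4 were matched and 3 rose, with *Id2*, which encodes an inhibitor of bHLH factors and is a known effector of N-Myc, at a log2 fold change of 0.96 (limma adjusted p = 1.26e-06), *Smad6* at 0.75 (0.000626) and *Smad7* at 0.54 (0.00206). Calls of *Id2* and *Smad6* were each kept in 14 of 15 alternatives, and that of *Smad7* in 12 of 15. The fourth, *Id3*, had a value of 0.29 and did not pass (limma adjusted p = 0.0676), with 0.18 to 0.40 when a pool was left out and a call in 2 of 15 alternatives.

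Markers of cell types in the sample could be named only from the same list of changed genes, so those shown were selected for a difference. None of 7 cardiomyocyte, 6 valve mesenchyme, 6 red cell and 5 macrophage markers could be matched to a name, so the tissue label was not checked against them. Of 6 endothelial and endocardial markers 2 were matched, *Cdh5* and *Kdr*, and their sum came to 447 and 439 CPM in the WT libraries and 376, 316 and 368 CPM in the transgenic ones, with *Cdh5* the more abundant but not called (limma adjusted p = 0.0563, passed in 7 of 15 alternatives) and *Kdr* called (log2 fold change -0.46, limma adjusted p = 0.00286). Of 5 pericyte and smooth muscle markers 3 were matched, *Pdgfrb*, *Rgs5* and *Myh11*, and their sum came to 188 and 185 CPM in the WT libraries and 138, 138 and 157 CPM in the transgenic ones, with *Pdgfrb* the most abundant but not called (limma adjusted p = 0.0519, passed in 6 of 15 alternatives). *Rgs5* and *Myh11* were called, at -0.48 and -0.71 (limma adjusted p = 0.0089 and 0.0204). Of 5 epicardial markers *Tbx18* was matched and rose by 0.37 (limma adjusted p = 0.00476), from 65.3 and 69.7 CPM in WT pools to 87.3, 88.1 and 86.2 CPM. Of 6 atrial markers *Myl7*, an atrial myosin light chain that the early ventricle also expresses, was matched and rose from 384 and 373 CPM to 653, 869 and 617 CPM (log2 fold change 0.90, limma adjusted p = 0.000166). None of the matched markers was at 0 in any pool. Without the variance trend in limma, 0 of the 12 matched list genes passed. Calls of *Kdr*, *Tbx18* and *Rgs5* were each kept in 12 of 15 alternatives, that of *Myl7* in 14 of 15 and that of *Myh11* in 10 of 14. The part of these marker levels in the differences of the *Myc*, cyclin and inhibitor genes was not tested.

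The pattern over the 5 pools was compared between each of the 5 genes without overlap and 380 named genes with a mean of at least 10 CPM, nearly all of them from the study's list of changed genes. Likeness was the root mean square difference between log2 values centred on the mean of the pools, where 0 is an identical pattern. Among these, the nearest to *Mycn* were *Unc5b* (0.0461), which encodes a netrin receptor, *Irx4* (0.0499), a ventricular transcription factor, and *Plekha6* (0.058). *Irx4* measured 74.4 and 70.9 CPM in WT pools 1 and 2, against 93.1, 95.7 and 85.9 CPM in transgenic pools 1 to 3. For *Ccnd1* they were *Amotl1* (0.0335), the endothelial cadherin gene *Cdh5* (0.0515) and *Pdpk1* (0.0592), and all of these were lowest in transgenic pool 2, as *Ccnd1* was. For *Ccnd2* they were *Sh3pxd2a* (0.039), *Syne1* (0.0392) and *Cdh11* (0.0393). *Cdkn1a* was nearest to *Gata4* (0.0308), a cardiac transcription factor at 286, 282.5 and 264 CPM in transgenic and 233 and 240 CPM in WT pools, then to *Gpc1* (0.0336) and *Lclat1* (0.0365). *Cdkn1c* was nearest to *Dock6* (0.031), *Rc3h1* (0.0472) and *Sox4* (0.0619). Genes without a name here were often closer. Of the 10090 genes with at least 10 CPM, those closer than the first and the third gene given were 5 and 19 for *Mycn*, 28 and 256 for *Ccnd1*, 293 and 302 for *Ccnd2*, 22 and 38 for *Cdkn1a*, and 10 and 115 for *Cdkn1c*. With 5 pools, such nearness describes these libraries only.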

How the data were processed

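Polyadenylated RNA of pooled E14.5 hearts was sequenced as single-end reads. The authors trimmed adaptors with cutadapt, used RSEM to quantify Ensembl genes of GRCm38, left out 1 WT pool, and deposited CPM values normalised with edgeR, with low genes removed. In each library 100% of values were whole multiples, within 0.01, of the worth of 1 read, which gave the reads. Within genotypes, libraries differed by more than read sampling (chi-square per gene 2.24 to 3.96, where 1 is sampling alone), so each pool counted as 1 replicate. Counting errors cover reads only, since PCR copies cannot be recognised.

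Values were compared as log2(CPM + 0.5), a scale that understates changes of low genes, with limma 3.58.1 in R 4.3.3 (variance trend, no covariates) on all 12857 genes, with Benjamini-Hochberg adjustment. A filter of at least 1 CPM in at least 2 libraries removed no gene. Alternatives were other pseudocounts, filters and scalings, limma without the trend, edgeR 4.0.16 and DESeq2 1.42.0 on the recovered reads, a pool-number block, and each pool left out. Scripts were tested on simulated data with changes larger than those of the 8 members. That test does not show how well changes of the members' size are found. Ratios and shares were compared by exact permutation (scipy 1.17.1). With 3 pools against 2, its two-sided p cannot fall below 0.2. Genes named are the 8 members, *Bmp2*, all 12 matched list genes, and the 3 named genes nearest to each member without overlap. Members and lists were chosen with earlier results of these data known. Positions are from RefSeq (GRCm38.p6), matched by symbol.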

Additional observations from a re-analysis of the deposited data

How the results depend on the processing

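Of 17 alternatives 15 gave distinct results, since the filter removed no gene and the fit without it repeated the main fit, and the edgeR quasi-likelihood fits under either library scaling were the same. *Mycn* kept its direction in all 15 and passed in 5. Its log2 fold change was 0.34 with a pseudocount of 0.1 (limma adjusted p = 0.0501), 0.34 without the variance trend (0.245), 0.33 after quantile normalization (0.0762), 0.32 with libraries rescaled to the same total (0.0589), 0.34 with edgeR's quasi-likelihood test (0.0574) and 0.34 with DESeq2 (0.105), and 0.25 to 0.43 with each pool left out. edgeR's exact test called it (adjusted p = 0.0416). *Cdkn1c* passed only with the replicate block and without transgenic replicate 3, at -0.28 in both, within -0.29 to -0.16 over the pools left out. *Myc*, near 0, turned negative with libraries rescaled (-0.0158), in edgeR's exact test (-7.3e-05), in DESeq2 (-4.07e-05) and with a pool left out (from -0.0483 to 0.0512). *Ccnd1*, *Ccnd2*, *Ccnd3*, *Cdkn1a* and *Cdkn1b* kept their direction and passed in none of the alternatives, and DESeq2 gave no adjusted p for *Myc* or *Cdkn1a*. The 3 within-library ratios and shares planned kept their direction with each pool left out, at 0.265 to 0.378 for the log2 *Mycn* to *Myc* ratio, -1.47 to -0.243 points for the *Ccnd1* share and -4.81 to -1.95 points for the *Cdkn1c* share. *Ccnd3* ran from 0.025 to 0.118. The number of genes called, 362, was 10 without the variance trend, 232 with DESeq2, 655 with the replicate block, 43 to 464 with each pool left out, and 226 without transgenic pool 2. Of the 12 matched list genes, 9 were called, 0 without the variance trend (limma, adjusted) and 3 without either WT pool. With 1 WT pool left out, the remaining one is assumed to vary like the transgenic pools. For pools with the same number, the deviations from the genotype means had correlations of -0.026 and -0.05 across genes. With 2 WT pools the deviations of one mirror those of the other, so both values rest on the same WT difference. They cannot show whether pools with the same number share more than that number, and the labels do not say. In the block fit transgenic pool 3 has no partner, and the fold changes equal those without it.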
